A study of Mus musculus with 4 samples.

Results

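Conventional CD4 T cells were described here in single-cell RNA-seq of mouse kidney, in 2 libraries from mice that carry a point mutation of the mitochondrial gene TrnE and 2 libraries from wild-type C57BL/6J mice. The mutant mice had mutation loads of 79% (mutant 1) and 76% (mutant 2). Dissociated kidney, with red cells lysed, had been sorted for viable cells and loaded on a droplet platform with a 3′ kit. The labels name no age, sex or litter, nor the day of processing, and do not state that the wild-type libraries came from separate mice, so p-values measure the spread between these libraries only. The members were chosen by measured values: a barcode needed at least 500 UMIs (unique molecules), at least 200 genes and at most 50% mitochondrial UMIs, then at least 2 UMIs of Cd3d, Cd3e and Cd3g together, at least 1 UMI of Cd4, at most 2 UMIs of C1qa, C1qb and C1qc together, and no UMI of Cd8a, Cd8b1, Foxp3 or Cd79a. This gave 1130 cells out of 31041 barcodes past the first 3 limits. There were 193 in mutant 1, 522 in mutant 2, 82 in wild type 1 and 333 in wild type 2.

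CD4 T cells recognise peptides on MHC class II and act on other immune cells through surface ligands such as CD40 ligand and through secreted cytokines. The conventional cells are those without Foxp3, the factor that defines regulatory T cells. In tissues of older or inflamed animals they include naive cells that recirculate, resident memory cells, and cells that carry PD-1 together with genes of follicular helper cells, which help B cells. TrnE encodes the mitochondrial tRNA for glutamate, so all mitochondrially encoded proteins that hold glutamate depend on it, and with them the respiratory chain.

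The label was first checked against markers that the selection did not use. Icos, a costimulatory receptor of activated helper cells, stood at 187, 311, 207 and 383 CPM (counts scaled to a common total, that of the summed CD4 UMIs of a library) in mutant 1, mutant 2, wild type 1 and wild type 2. Tnfsf8, the CD30 ligand, stood at 150, 398, 263 and 770 CPM. Izumo1r, the folate receptor 4 protein of regulatory and follicular helper cells, stood at 109, 269, 178 and 181 CPM. All 3 were well above their levels in CD8 T cells of the same libraries, with values given further on. Their levels in Foxp3-positive cells are not reported here. The comparison with CD8 cells does not separate conventional cells from regulatory cells in which no Foxp3 UMI was found. A Cd4 UMI was also found in 0.448% to 1.18% of proximal tubule barcodes (median depth 3690 to 5584 UMIs) and in 0.408% to 1.35% of B cell barcodes (4268.5 to 11406 UMIs), against median depths of 3947 to 7466 UMIs in the CD4 cells. Members with exactly 1 Cd4 UMI numbered 503, with Icos at 246.5 CPM and Tnfsf8 at 315.7 CPM, and the 627 members with 2 or more had 357.8 and 615.9 CPM. Cd3 barcodes just outside, with no Cd4 or Cd8 UMI, numbered 1611, with Icos at 206.8 CPM and Tnfsf8 at 89.13 CPM. The MHC class II chain gene Cd74 stood at 1587 CPM with 1 Cd4 UMI, 396.5 with 2 or more and 2514 outside. In that order Ccl5 stood at 2515, 1392 and 2723 CPM, and Nkg7 at 630.3, 417.8 and 811.8 CPM. Izumo1r, Trac, Cd28 and Cd5 of the 1-UMI members lay nearer to the other members. Members with 1 Cd4 UMI numbered 120, 241, 48 and 94 in library order. Whether they include other cell types was not tested.

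Other cell types left traces that differed between libraries. A C1q UMI, from macrophage genes, was present in 48.7%, 44.6%, 14.6% and 3.00% of the members, in the order mutant 1, mutant 2, wild type 1, wild type 2, and in 56.9%, 43.7%, 17.0% and 2.99% of unthinned proximal tubule barcodes. In cells thinned to 1000 UMIs each, a UMI of the MHC class II gene H2-Ab1 was found in 18.1%, 16.5%, 4.88% and 2.10% of members (unthinned, in 92, 276, 16 and 61 cells), and in 36.7%, 26.9%, 11.2% and 14.1% of proximal tubule barcodes. The members' H2-Ab1 shares lie below those of the tubule in each library, and the source of these UMIs was not tested. Summed over a list of 8 macrophage and monocyte genes the level was 2431, 1938, 2384 and 654 CPM, with no gene of the list at 0. For 5 B cell genes it was 357, 494, 343 and 1239 CPM, with 2 genes at 0 in mutant 1 and wild type 1, 1 in mutant 2 and none in wild type 2. The 6 proximal tubule genes summed to 2129, 842, 1261 and 2162 CPM. Gamma delta T cell genes, 5 in all, summed to 44.0, 35.8, 15.2 and 5.65 CPM. Scrublet called 6, 8, 2 and 14 members doublets. Barcodes shared between any pair of libraries numbered 14 to 26, and none was shared among the members.

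The summed CD4 UMIs came to 953887, 2880288, 460108 and 2829537, so that values of wild type 1, with 82 cells, are the least precise. The libraries also differed in the kind of RNA they held. Genes that span over 100 kb took 7.34% (mutant 1), 10.7% (mutant 2), 12.4% (wild type 1) and 15.6% (wild type 2) of the CD4 UMIs. In CD8 T cells these shares were 6.99%, 9.35%, 10.2% and 14.2%, and in barcodes with no Cd3 UMI 7.30%, 9.32%, 10.7% and 15.1%. The nuclear RNA Malat1 took 1.17%, 1.10%, 1.60% and 2.51% of CD4 UMIs. In each of these measures both mutants lay below both wild types in CD4 cells. The software version that made the counts also separates mutants from wild types, so the version and the genotype cannot be told apart.

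The share of conventional CD4 T cells differed between the groups by less than the spread within them. Of the kept barcodes they made up 1.98% (exact 95% interval 1.71 to 2.27) in mutant 1 and 5.76% (5.28 to 6.25) in mutant 2. In wild type 1 they made up 1.42% (1.13 to 1.76) and in wild type 2 5.18% (4.65 to 5.75). These intervals cover counting error only. The group means were 3.87% ± 2.67 and 3.30% ± 2.66 (SD, n = 2 each), with an exact two-sided permutation p of 0.667, where 2 libraries against 2 cannot give less than 0.33. One library of each group was high and the other low. With a stricter selection, at least 2 Cd4 UMIs and no C1q UMI, the members were 35, 155, 25 and 234, and the difference in this share turned from 0.56 to -1.003 percentage points.

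Relative to other T cells wild type 2 stood apart. CD4 cells were 12.4%, 16.4% and 10.3% of the barcodes with Cd3 UMIs in mutant 1, mutant 2 and wild type 1, and 35.1% in wild type 2. For each CD8 T cell (the same selection with Cd8a or Cd8b1 in place of Cd4) there were 0.399, 0.319 and 0.234 CD4 cells in the first 3 libraries and 1.35 in wild type 2. The means of the share of Cd3 barcodes were 14.4% ± 2.81 for the mutants and 22.7% ± 17.5 for the wild types (SD, n = 2 each, exact permutation p = 1). Without wild type 2 the difference turned from -8.27 to 4.12 percentage points. Foxp3-positive cells were 9.39%, 11.1%, 5.75% and 18.4% of the CD4 and Foxp3-positive cells together.

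**Figure D1:**
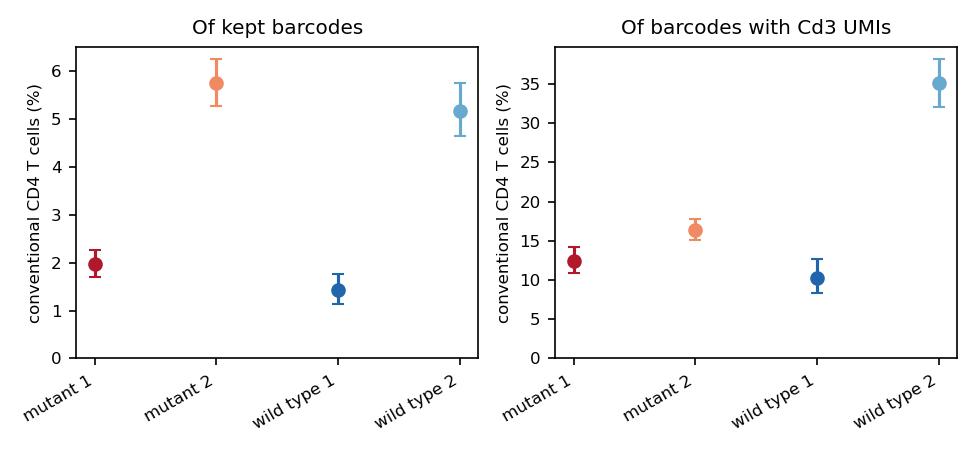
Share of conventional CD4 T cells among kept barcodes (left, percent) and among barcodes with Cd3 UMIs (right, percent), 1 point per library with exact 95% binomial intervals. On the left 1 library of each group is near 5% to 6%, and on the right wild type 2 alone is at 35.1%.

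What sets these cells apart from CD8 T cells of the same kidneys was tested in one fit with the library as a block. Of 11404 genes, 541 (4.74%) were higher in CD4 cells and 437 (3.83%) were higher in CD8 cells at an adjusted p under 0.05. Scaled to library totals the split was 672 to 338. Without mutant 2 the calls numbered 548 in all and without wild type 2 they numbered 561. The helper ligand Cd40lg had 209, 135, 209 and 138 CPM in CD4 cells and 10.2, 3.00, 18.3 and 3.62 CPM in CD8 cells. Its difference was 4.55 ± 0.27 on the log2 scale (SE, adjusted p = 1.4e-05). Every library of CD4 cells was above every library of CD8 cells.

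Of 15 tested cytokines and helper ligands, 9 were higher in CD4 cells and none in CD8 cells. Besides Cd40lg they included Tnfsf11, the ligand RANKL (log2 difference 3.53, adjusted p = 6.8e-06), Tnfsf8 (3.35, adjusted p = 7.4e-07), the follicular helper cytokine Il21 (3.23, adjusted p = 7.0e-04) and lymphotoxin alpha, Lta (1.52, adjusted p = 0.0034). The growth factor gene Areg (log2 difference 4.94, adjusted p = 1.0e-05) and the costimulatory receptor gene Tnfrsf4, or OX40 (3.75, adjusted p = 1.2e-05), were also among the largest differences. Tiam1, which activates the small GTPase Rac, differed by 3.68 (adjusted p = 1.2e-05). Of 7 tested Th2 genes 6 were higher in CD4 cells, among them the cytokine Il4 (4.66, adjusted p = 0.0080) and the factor Gata3 (1.29, adjusted p = 2.1e-04). For Il4 the CPM were 17.4 or less in all libraries.

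Genes of PD-1-bearing and follicular helper CD4 cells were numerous: 13 of 20 tested were higher in CD4 cells and 2 in CD8 cells, with a median log2 difference of 1.63. This list came from earlier knowledge of age-associated CD4 cells and was chosen with results of these data known. Sostdc1, a secreted BMP and Wnt antagonist made by follicular helper cells, showed the largest difference, 5.53 ± 0.57 (SE, adjusted p = 3.5e-04), with 17.8, 88.5, 296 and 148 CPM in CD4 cells and 6.01, 1.90, 1.02 and 0.452 CPM in CD8 cells. Izumo1r differed by 3.05 (adjusted p = 1.8e-05) and Icos by 1.73 (adjusted p = 9.0e-05). Pdcd1, which encodes PD-1 itself, was higher in CD8 cells (-0.71, adjusted p = 0.0048). Of 5 regulatory T cell markers 3 were higher in CD4 cells although Foxp3 UMIs had been barred, among them Ikzf2 (1.10, adjusted p = 0.0086) and Ctla4 (1.31, adjusted p = 1.8e-04).

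Cytotoxic genes went the other way, with 13 of 15 higher in CD8 cells and none in CD4 cells. The chemokine Ccl3 differed by -4.35 (adjusted p = 1.6e-04), the chemokine Ccl5 by -2.90 (adjusted p = 1.0e-05) and the granzyme gene Gzmk by -1.73 (adjusted p = 1.6e-04). The natural killer receptor genes Klre1 (-4.30, adjusted p = 6.7e-06) and Klrc1 (-4.30, adjusted p = 1.0e-05) were among the largest, as were Wdr95 (-4.27, adjusted p = 3.1e-05) and the gamma chain constant genes Tcrg-C2 (-4.61, adjusted p = 6.7e-06) and Tcrg-C4 (-5.97, adjusted p = 6.4e-06), which resemble each other in sequence, so their reads may be shared. Of 13 mitochondrially encoded mRNAs 9 were higher in CD4 cells and none in CD8 cells (median 0.40), whereas 27 of 63 cytosolic ribosomal protein genes were higher in CD8 cells and none in CD4 cells (median -0.23). None of 72 nuclear respiratory chain genes was higher in CD4 cells and 1 was higher in CD8 cells. Each gene named in this comparison with CD8 for the size of its difference kept its call without each library in turn.

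**Figure D2:**
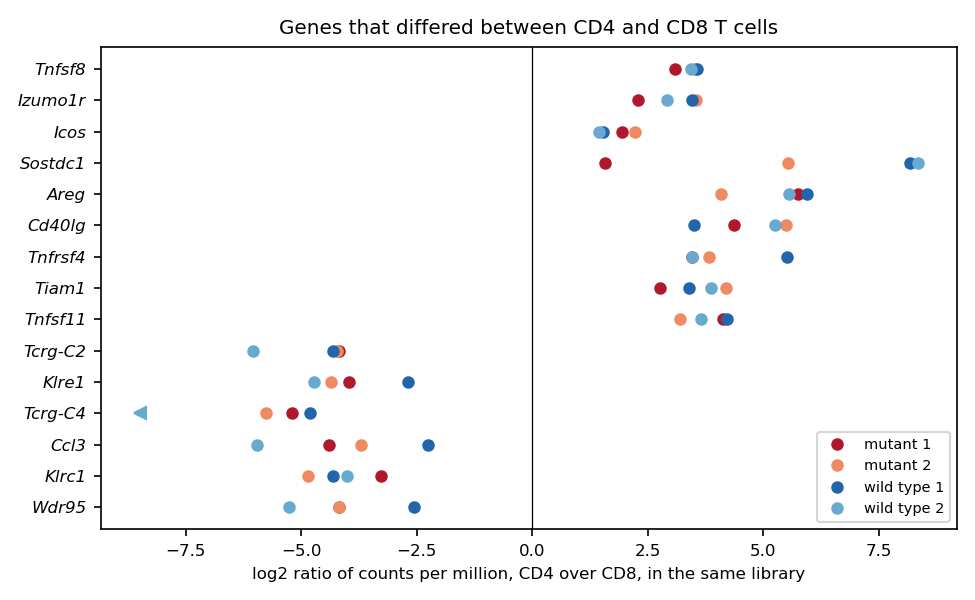
Log2 ratio of CPM in CD4 over CD8 T cells within each library (x axis) for 3 markers, the 6 genes named as higher and the 6 named as lower in CD4 cells; each point is a library and a triangle marks a library with no UMI in CD4 cells. All 4 libraries lie on the same side of 0 for each gene.

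Between mutant and wild-type CD4 cells edgeR's quasi-likelihood test called 0 of 10411 genes (0%) at an adjusted p under 0.05. At an unadjusted p under 0.05 there were 611 genes (5.87%), and DESeq2 called 7. Without wild type 1 edgeR called 42 genes and without wild type 2 it called 21. Genes for which both mutants lay above both wild types made up 14.5% of those tested, and genes for which both lay below made up 27.1%. These shares are the background for the counts that follow. The genes named below were taken by the smallest unadjusted p among those without overlap, so their values are descriptions.

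Satb1, a chromatin organiser that is abundant in naive T cells, led the lower genes. It is Ensembl gene ENSMUSG00000023927 on the minus strand of chr17:51736187-51833290 (mm10, GENCODE M21), where it spans 97.1 kb. In mutant 1 and mutant 2 it stood at 28.3 and 24.3 CPM, and in wild type 1 and wild type 2 at 139 and 125 CPM. The means were 26.3 ± 2.83 and 132 ± 10.1 CPM (SD, n = 2 each), a log2 difference of -2.15 ± 0.35 (SE, unadjusted p = 2.9e-04, adjusted p = 0.50). The groups did not overlap and their gap was larger than the spread within each. In the CD4 cells 27, 70, 64 and 353 Satb1 UMIs lay in 18, 32, 13 and 72 cells, and no single cell held more than 14.3% of a library's UMIs. In CD8 T cells it stood at 35.2, 38.0, 90.5 and 247 CPM, also with both mutants below both wild types, and the difference between the CD4 and CD8 effects was -0.16 ± 0.47 (SE, adjusted p = 1). Over 18 alternative analyses the log2 difference in CD4 cells ranged from -2.50 to -1.95 and the adjusted p from 1.5e-04 to 1.00. Satb1 passed in 3 of them: DESeq2 (adjusted p = 0.022), no filter on low counts (1.5e-04) and without wild type 2 (0.037).

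Among the other lower genes were the activation marker Cd83 (25.2, 25, 113 and 84.8 CPM), the kinase gene Prkcb of antigen receptor signalling (50.3, 75.0, 187 and 194 CPM) and Setbp1 (19.9, 38.9, 86.9 and 170 CPM). Ccser1, Lrmda, Magi3, Glis3 and Mob3b completed the group with log2 differences from -2.55 to -1.67, together with Tsix, the RNA antisense to Xist (-2.86), whose UMIs may be mixed with those of Xist where the counting did not use strand. Of these 10 lower genes 7 span over 100 kb, and their median span is 277 kb. In wild type 1, 17 of 23 UMIs of Lrmda, 14 of 17 of Glis3 and 15 of 21 of Mob3b lay in 1 cell. Long genes were also lower in general, as given below.

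Higher in both mutants were Isg20, an interferon-induced exonuclease, with 125, 112, 50.0 and 25.1 CPM (log2 difference 1.95 ± 0.43, SE, adjusted p = 0.71), and Asb2, a ubiquitin ligase subunit, with 131, 110, 45.6 and 65.4 CPM (1.28 ± 0.35, adjusted p = 0.71). The proteasome assembly factor Psmd10 had 49.3, 50.7, 17.4 and 24.4 CPM. Znhit1 and Nol12 differed by 1.51 and 1.40, and Ly6c1, a surface protein of memory and some naive T cells, by 2.24. For Ly6c1, 46 of 59 UMIs in mutant 1 and 6 of 11 in wild type 1 lay in 1 cell, and barcodes without a Cd3 UMI held it at 238, 430, 471 and 11.3 CPM. In the other 4 genes 1 cell held a large part of a mutant library's UMIs. For Clu, a secreted chaperone made by injured tubule cells, 34 of 43 UMIs in mutant 1 and 314 of 321 in mutant 2 lay in 1 cell. Atp6v1g3, a proton pump subunit of intercalated cells, had 100 of 125 and 104 of 141 UMIs in 1 cell, and the metallothionein Mt1 38 of 95 and 184 of 267. With the stricter selection the log2 difference of Mt1 turned from 1.80 to -3.01. The chemokine Ccl1 is described last. Of the 10 higher genes 9 span under 40 kb. DESeq2 called Clu, Atp6v1g3, Ccl1 and Satb1 and, outside the naming rule and singled out after their values were seen, Plpp1, Krt83 and Tm4sf1. It was run on genes past the same filter on low counts. Ccl1 and Plpp1 were near 0 in both wild types and passed that filter through the mutants, so their calls are descriptions. The levels of Krt83 and Tm4sf1 are not reported here.

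**Figure D3:**
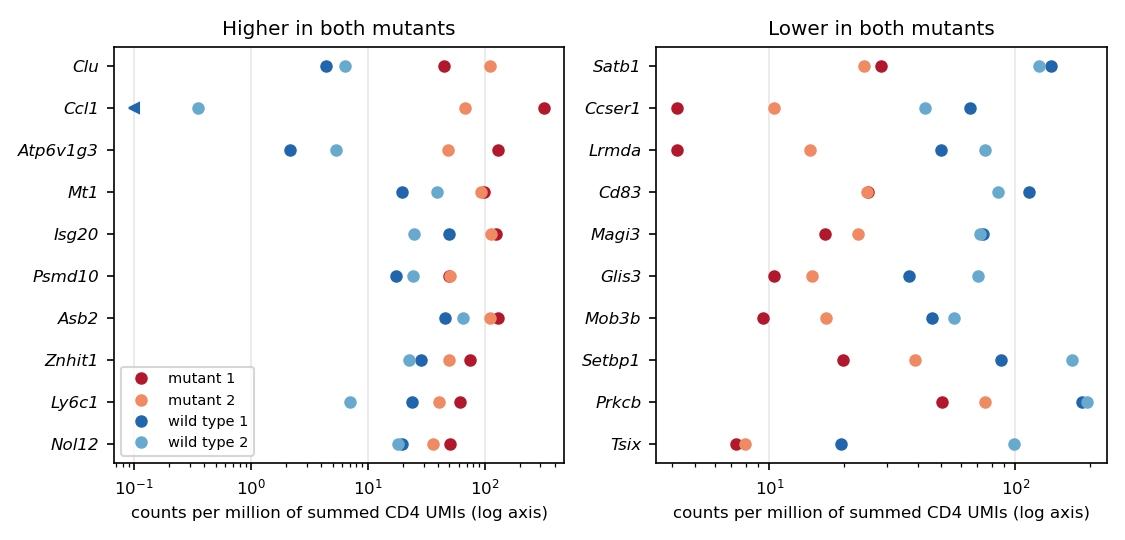
CPM of summed CD4 UMIs (log axis) in each library for the 10 genes named as higher (left) and the 10 named as lower (right) in both mutants; the triangle at the left edge marks Ccl1 in wild type 1, which had no UMI. The 2 mutant points of Satb1 lie at 28.3 and 24.3, far left of 139 and 125.

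Across all genes tested the difference followed the genomic span. The median log2 difference was 0.45 for 2433 genes under 10 kb, 0.15 for 3392 genes of 10 to 30 kb, -0.22 for 3186 genes of 30 to 100 kb and -0.49 for 1393 genes over 100 kb, against -0.01 for all genes. Of the genes under 10 kb 31.3% lay above both wild types in both mutants, and of those over 100 kb 56.1% lay below. The gene lists are therefore given with their median span. The part of span or RNA make-up in any list's difference was not tested. With scaling to library totals the median of all genes was -0.19.

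Naive and recirculating genes were mostly lower in the mutants, with a median of -0.65 over 15 tested genes (median span 24.4 kb). Il7r and Ly6c1 were the 2 with positive differences, and 2 were positive with library totals as well. Satb1 belongs to this list. Of the 15, 5 lay below in both mutants (33.3%, against 27.1% of all genes and 18.4% of genes of 10 to 30 kb) and 1 above. Lef1, a factor of naive T cells, had 55.6, 102, 169 and 199 CPM (-1.05). Summed over the list the levels were 1397, 1946, 1971 and 2850 CPM, so that mutant 2 and wild type 1 were nearly level. The summed B cell genes, 357, 494, 343 and 1239 CPM, were also highest in wild type 2, and their part in this was not tested.

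Follicular helper and PD-1 genes had a median of -0.73 over 19 tested genes (median span 26.9 kb), with 3 positive. Of the 19, 6 lay below in both mutants (31.6%, against 27.1% of all genes and 18.4% of genes of 10 to 30 kb) and 2 above. Sostdc1 was lower in both mutants (-1.86 ± 0.65, SE, unadjusted p = 0.021, adjusted p = 0.71), in 5, 29, 7 and 51 cells. Il21 had 4.19, 31.2, 32.6 and 113 CPM, with mutant 2 close to wild type 1. Angptl2 followed with 6.29, 9.72, 8.69 and 45.9 CPM, where the groups overlapped. Spp1, which encodes osteopontin, was higher, with 717, 555, 396 and 220 CPM, and 541 of its 1598 UMIs in mutant 2 came from 1 cell; its difference turned from 1.25 to -0.28 with the stricter selection. Pdcd1 had 123, 211, 113 and 109 CPM (0.76, adjusted p = 0.71). Of the 13 checkpoint genes, which include Pdcd1, 6 were positive with a median of -0.08. Lag3, an inhibitory receptor, had 30.4, 107, 45.6 and 31.5 CPM, high in mutant 2 alone.

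The summed levels of these helper genes depend on single libraries. They were 2736, 4256, 3921 and 5898 CPM, so mutant 2 exceeded wild type 1. Cell cycle genes had a median of -0.66 over 21 tested (3 positive, 7 below in both mutants, none above, median span 13.0 kb). The 7 below were 33.3%, against 27.1% of all genes and 18.4% of genes of 10 to 30 kb. Top2a, the topoisomerase of dividing cells, had 29.4, 11.1, 71.7 and 54.4 CPM, carried by 14, 19, 7 and 31 cells, and Mki67, a marker of cycling cells, had 15.7, 9.03, 32.6 and 31.8 CPM. With the highest cell of each gene left out the median of this list was -0.38.

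Interferon-response genes had mostly positive differences. Their median was 0.71 over 26 tested genes (median span 12.2 kb), 25 of 26 were positive, and 11 (42.3%, against 14.5% of all genes and 16.4% of genes of 10 to 30 kb) lay above in both mutants, none below. None passed the adjusted test. Irf7, the factor that amplifies interferon production, had 67.1, 86.8, 47.8 and 17.0 CPM (1.60). Usp18, a brake on interferon signalling, had 26.2, 28.8, 17.4 and 5.66 CPM (1.75). Xaf1 and Oasl2, both induced by interferon, differed by 1.27 and 1.00. Summed over the list the levels were 5536, 6808, 5390 and 3603 CPM, with wild type 1 close to mutant 1 and wild type 2 low. The summed macrophage genes were likewise low in wild type 2 alone, and their part in this was not tested. With library totals the median was 0.55 and 23 were positive.

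MHC class I and immunoproteasome genes were also mostly positive, with a median of 0.51 over 12 tested (11 positive, 5 above in both mutants, 1 below, median span 5.08 kb). The 5 above were 41.7%, against 31.3% of all genes under 10 kb, of which 79.9% were positive. Psmb10 and Psmb8, catalytic immunoproteasome subunits, had 242, 248, 178 and 121 CPM and 948, 914, 754 and 412 CPM. H2-T23, a class I gene that presents to natural killer receptors, had 438, 590, 378 and 287 CPM. Among genes of tissue residency, the galectin gene Lgals1 had 780, 537, 424 and 285 CPM and the regulator gene Rgs1 436, 367, 272 and 200 CPM, both without overlap. Of that list 12 of 17 were positive (median 0.14, median span 8.11 kb). Lgals1 and Rgs1 were the 2 above in both mutants, and 1 gene lay below. The 2 above were 11.8%, against 14.5% of all genes and 31.3% of all genes under 10 kb. Lymphotoxin genes were higher in both mutants: Ltb had 1136, 1010, 587 and 681 CPM and Lta 31.5, 24.7, 15.2 and 17.0 CPM. The 15 tested cytokines and helper ligands went both ways, with 9 positive (median 0.31, median span 5.44 kb). Both mutants lay above for 3 of them (20%, against 31.3% of all genes under 10 kb). They lay below for 3 (20%, against 7.73%).

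Mitochondrial genes are given by where they are encoded. The 13 mitochondrially encoded mRNAs had a median of -0.16, with 2 positive. Of the 13, 6 lay below in both mutants (46.2%, against 27.1% of all genes and 7.73% of genes under 10 kb) and none above. Only mt-Nd3 and mt-Nd6, subunits of complex I, had an unadjusted p under 0.05. For mt-Nd3 the levels were 287, 271, 617 and 1061 CPM (-1.39 ± 0.39, SE, adjusted p = 0.71), with both mutants below both wild types. For mt-Nd6 they were 14.7, 15.97, 15.2 and 95.1 CPM, so the difference of -1.78 came from wild type 2 and turned to 0.15 without it. In the other 11 the differences ran from -0.39 (mt-Atp8) to 0.42 (mt-Nd5). Each of mt-Nd1, mt-Nd2, mt-Nd4, mt-Nd4l, mt-Cytb, mt-Co1, mt-Co2, mt-Co3 and mt-Atp6 changed sign in at least 1 alternative, as did mt-Nd5 and mt-Atp8. All mitochondrial UMIs together took 3.93%, 4.56%, 5.95% and 4.73% of CD4 UMIs (4.25% ± 0.45 and 5.34% ± 0.87, SD, n = 2 each, exact permutation p = 0.33, the smallest possible). Medians over cells were 1.43%, 2.44%, 2.09% and 3.19% and overlapped between the groups. With the stricter selection the difference turned from -1.09 to 0.61 percentage points.

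Nuclear genes of the respiratory chain had a median of 0.70 over 72 tested genes, where all genes under 10 kb had 0.45. All 72 were positive (71 with library totals, median 0.49), against 79.9% of genes under 10 kb. Both mutants lay above for 26 of them (36.1%, against 31.3% of all genes under 10 kb), with none below, and their median span is 7.25 kb. Ndufs8 and Ndufs7, core subunits of complex I, differed by 1.21 and 1.06, and Sdhb of complex II by 1.04. Ndufs8 had 159, 103, 63.0 and 66.4 CPM, without overlap. Summed over the 72 genes the levels were 27961, 17307, 17363 and 15262 CPM: mutant 1 stood apart and mutant 2 was level with wild type 1. Cytosolic ribosomal proteins had a median of 0.51 over 63 genes (60 positive, 32 above in both mutants, none below, median span 3.57 kb). The 32 above were 50.8%, against 31.3% of all genes under 10 kb. Mitochondrial translation genes, including those that charge the glutamate tRNA, had a median of 0.46 over 24 tested with 17 positive, led by Mrpl30 (160, 122, 86.9 and 84.8 CPM). Mitochondrial chaperones and proteases had a median of 0.26 over 15, and the protease subunit Clpp had 64.0, 60.1, 39.1 and 36.1 CPM. Glycolysis genes had a median of 0.18 over 16, and Pgk1 had 202, 155, 128 and 107 CPM.

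Of 25 genes of the integrated stress response, the programme that mitochondrial defects often switch on, 15 were tested, 11 were positive and 6 lay above in both mutants (40%, against 14.5% of all genes and 16.4% of genes of 10 to 30 kb), none below, with a median of 0.32 and a median span of 10.98 kb. Atf5, a factor of that programme, had 11.5, 29.5, 4.35 and 2.47 CPM, with 69 of its 85 UMIs in mutant 2 in 1 cell. It was low in the wild types and entered the tested set through the mutants, so the 40% is a description. Nupr1, a stress-induced chromatin protein, had 46.1, 25, 19.6 and 2.83 CPM, with 35 of 44 and 47 of 72 UMIs in 1 cell of the mutants. Ddit4, which restrains mTOR, had 105, 76.0, 76.1 and 37.5 CPM, so mutant 2 and wild type 1 were level. Among 13 tested p53 and senescence genes (median 0.48, median span 9.75 kb) 9 were positive and 3 lay above in both mutants. The 3 above were 23.1%, against 31.3% of all genes under 10 kb. The apoptosis gene Bbc3 had 32.5, 30.9, 10.9 and 15.6 CPM and the cell cycle inhibitor Cdkn1a 18.9, 18.1, 4.35 and 9.90 CPM.

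**Figure D4:**
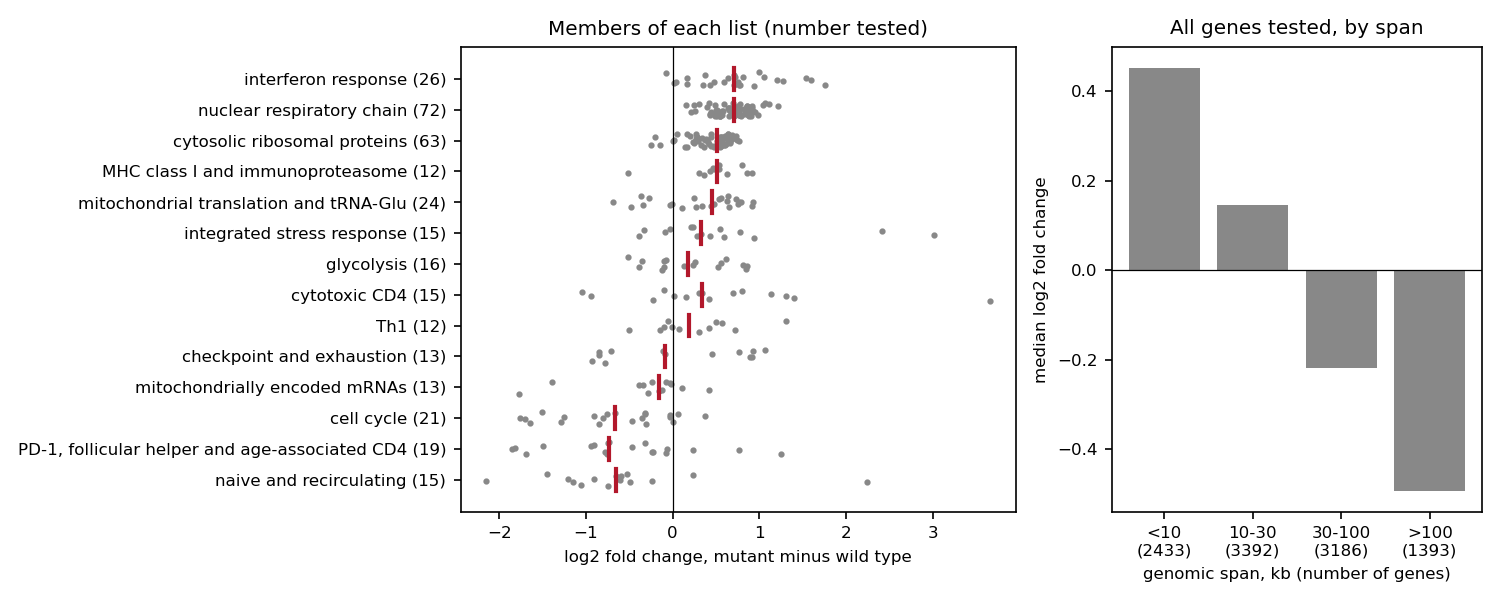
Log2 difference, mutant minus wild type, of each tested member (grey points) and the median (red bar) of 14 gene lists (left), and the median log2 difference of all tested genes by genomic span in kb (right). The interferon and respiratory chain lists centre at 0.71 and 0.70, the naive list at -0.65, and the medians by span go from 0.45 to -0.49.

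Subsets of the CD4 cells were compared as shares of cells with at least 1 UMI, after each cell was thinned to 1000 UMIs; no member was shallower, and 65 to 429 tubule barcodes per library were left out as shallower. A UMI of Ccr7, S1pr1 or Lef1, genes of naive and recirculating cells, was found in 9.85% (exact 95% interval 6.03 to 14.9) of the cells of mutant 1 and 15.7% (12.7 to 19.1) of those of mutant 2. In wild type 1 it was found in 19.5% (11.6 to 29.7) and in wild type 2 in 24.6% (20.1 to 29.6), and unthinned in 31.6%, 50%, 54.9% and 68.8% in library order. Proximal tubule barcodes gave 0.378% to 1.42%. Both mutants were below both wild types, with means of 12.8% ± 4.15 and 22.1% ± 3.61 (SD, n = 2 each) and an exact permutation p of 0.33, the smallest this design allows. Lef1 alone, which spans 114 kb, was found in 4.14%, 9.77%, 12.2% and 14.1% of cells, and S1pr1 alone, which spans 4.64 kb, in 5.18%, 5.75%, 8.54% and 12.0%. UMIs of genes over 100 kb were also fewer in both mutants in CD4, CD8 and other barcodes, as given above, and their part in this share was not tested. Ccr7, S1pr1 and Lef1 were chosen after their values were known, and other genes did not all follow them. Il7r, also of the naive list, was found in 42.0% (mutant 1), 45.0% (mutant 2) and 30.5% (wild type 1) of thinned cells. In the same order Tcf7 was found in 11.9%, 17.4% and 17.1%, and Klf2 in 7.25%, 10.7% and 19.5%. Il7r in both mutants and Tcf7 in mutant 2 thus lay above wild type 1, whereas Klf2 lay below it in both mutants. The wild type 2 shares of these genes are not reported here. Satb1, of 97.1 kb, was found in 3.63%, 1.15%, 6.10% and 12.0% of cells (9.33%, 6.13%, 15.9% and 21.6% unthinned) and in 0.284% to 0.740% of tubule barcodes.

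For the next subsets the groups overlapped. A UMI of Pdcd1, Tnfsf8 or Izumo1r was found in 28.5%, 45.6%, 24.4% and 54.4% of cells (60.6%, 77.6%, 54.9% and 86.8% unthinned, 0.0581% to 0.473% in tubule barcodes), with an exact permutation p of 1. Library 2 was the higher in both groups. Genes of cytotoxic cells (Gzmk, Gzma, Gzmb or Eomes) were found in 15.0%, 21.5%, 29.3% and 15.0% of cells (23.8%, 42.5%, 40.2% and 34.2% unthinned, 0.266% to 0.662% in tubule barcodes), again with an exact permutation p of 1.

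One subset was found mostly in mutant 1. Cells with a UMI of Il17a, the cytokine of Th17 cells, numbered 16 of 193 in mutant 1 (574 UMIs), 2 of 522 in mutant 2 (2 UMIs), 0 of 82 in wild type 1, which allows a share of cells with a UMI of up to 3.66%, and 1 of 333 in wild type 2 (6 UMIs). The 16 cells had the chemokine receptor gene Ccr6 at 107 CPM, against 21.6 CPM in the other 177 cells of that library. The gamma chain gene Tcrg-C1 stood at 107 CPM and the delta chain gene Trdc at 8.23 CPM in them, against 14.4 and 3.604 CPM. Their Trac level was 863.9 CPM against 969.6. In the same library 61 of 1359 other Cd3 barcodes held 1003 Il17a UMIs, and 24 of 7845 barcodes without a Cd3 UMI (0.306%) held 34. A UMI of Il17a, Il17f, Ccr6 or Il23r was found in 11.9%, 0.766%, 1.22% and 2.40% of thinned cells (17.1%, 2.30%, 1.22% and 6.61% unthinned), against at most 0.769% of tubule barcodes in any library. The exact permutation p was 1. The difference of 4.53 percentage points turned to -1.05 without mutant 1. The 7 tested Th17 genes had a median of 1.09, with 1 above in both mutants (14.3%, against 14.5% of all genes). Tmem176b had 483, 87.5, 97.8 and 115 CPM.

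**Figure D5:**
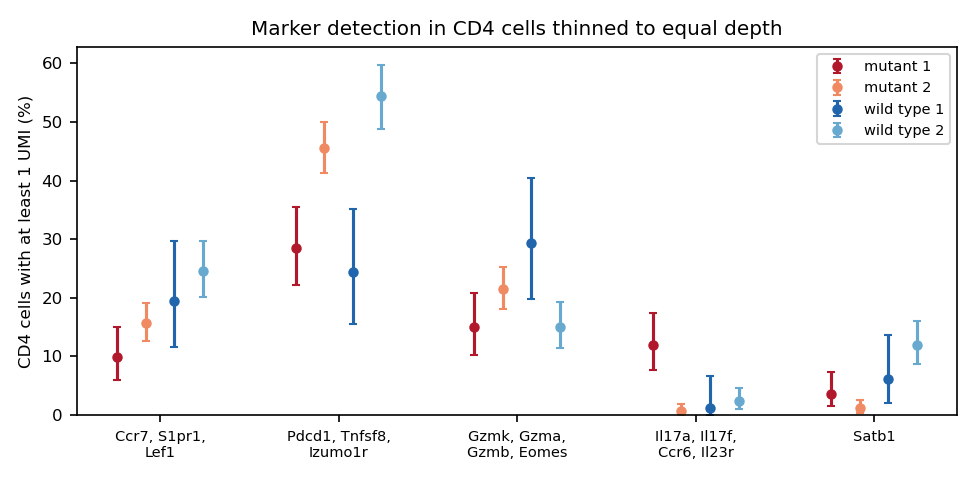
Percent of CD4 cells with at least 1 UMI of any gene named under each group, each cell thinned to 1000 UMIs, 1 point per library with exact 95% binomial intervals. The first group and Satb1 are lower in both mutants, and the Il17a group is at 11.9% in mutant 1 and at 2.40% or less in the other 3 libraries.

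Finally, the mutant effect in CD4 cells was compared with that in CD8 cells by an interaction term. It was called for 2 of 11404 genes (0.0175%), Ccl1 and Plpp1. Without mutant 2 it was called for 0 genes, without wild type 1 for 43 and without wild type 2 for 131. With the highest cell of each gene left out it was called for 0, with 276 at an unadjusted p under 0.05.

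Ccl1, a chemokine that binds CCR8, had 307, 194, 0 and 1 UMIs in the CD4 cells of mutant 1, mutant 2, wild type 1 and wild type 2 (322, 67.4, 0 and 0.353 CPM). Summed over libraries the ratio of mutant to wild type was 429.8. Its counting interval of 76.8 to 17012 treats each UMI as independent. It leaves out the spread between cells and libraries, so it is no bound on a group difference. In mutant 1, 303 of the 307 UMIs lay in 1 of 3 cells. In mutant 2 the UMIs lay in 8 cells, with 67 in the highest. CD8 cells had 1.85, 0.701, 0.509 and 6.78 CPM. Plpp1, which encodes a lipid phosphatase, had 30.4, 42.4, 2.17 and 1.41 CPM in CD4 cells, in 7, 22, 1 and 4 cells, and 30.5, 36.9, 79.4 and 39.3 CPM in CD8 cells. In mutant 1, 20 of its 29 UMIs lay in 1 cell, and in mutant 2, 40 of 122. Barcodes without a Cd3 UMI held Plpp1 at 208, 439, 498 and 18.7 CPM.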

How the data were processed

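Per the file headers, the deposited matrices are untransformed UMI counts that the authors made with Cell Ranger 7.0.0 (mutants) and 7.1.0 (wild types); the other deposited columns are barcodes and gene names. The build is mm10 per the submitters' processing notes. How introns or strand were treated in counting is not given here. The members and gene lists were chosen with earlier results of these data known.

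UMIs of the members were summed per library. Mutants were compared with wild types by edgeR 4.0.16 (quasi-likelihood test, filterByExpr, TMM, Benjamini-Hochberg), without a replicate block, in R 4.3.3. The 11 genes used for selection were not tested. CD4 and CD8 sums were compared with the library as a block. Shares were compared by exact permutation over the 4 libraries. CPM use total UMIs. Doublets were called with Scrublet in scanpy 1.11.5 and kept. Named genes: the 10 smallest unadjusted p in each direction among genes of at least 30 CPM without overlap (none passed), leaving out predicted, selection, receptor-segment and Y-linked genes and Xist; up to 4 genes per list; mitochondrial mRNAs; 6 per direction against CD8. The genes of each detection group were chosen after their values were known. Some genes the rule names are not reported here. Scripts were tested on simulated data. Alternatives are in the closing section, DESeq2 1.42.0 among them. Depth limits low genes: a 0 allows up to 3 UMIs.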

Additional observations from a re-analysis of the deposited data

Results flagged for a closer look

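Ccl1 and Plpp1 were the genes called by the test of the difference in mutant effect between CD4 and CD8 T cells. The fitted log2 difference of the effects was 10.97 for Ccl1 (adjusted p = 0.0033) and 4.98 for Plpp1 (adjusted p = 0.0082). Since Ccl1 had at most 1 UMI in each wild-type library of CD4 cells, its fitted value depends on the prior count and is no bound. Ccl1 passed the filter on low counts through the CD4 cells of the mutants, where it was high, so its p-value is a description. In mutant 1 a single cell held 303 of its UMIs. Both mutants were higher in CD4 cells for both genes, whereas in CD8 cells neither gene was higher in both mutants. For Plpp1 both mutants lay below both wild types in CD8 cells, with mutant 2 close to wild type 2. The part of each cell type in its difference of effect was not tested. For Ccl1 the adjusted p was 0.054 without mutant 2 and 0.28 without wild type 2. For Plpp1 it was 0.28 without mutant 2 and 1 with the highest cell of each gene left out, where the value was 2.76.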

How the results depend on the processing

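The count of 0 genes between mutant and wild-type CD4 cells became 119 (47 higher, 72 lower) with no filter on low counts and 7 with DESeq2, and 0 to 42 when 1 library was left out; it was 0 in the other 12 alternatives, the replicate block among them (773 at an unadjusted p under 0.05; same-numbered libraries did not deviate together, correlation -0.080). Left-out libraries gave 548 to 1094 calls against CD8 and 0 to 131 differences of effect, which were 0 with the highest cell of each gene left out, an alternative chosen after seeing the data, as were the removal of Il17a cells and left-out libraries for detection shares. The stricter selection turned the share of kept barcodes to -1.003 and the mitochondrial share to 0.608 percentage points. Without 1 library the share of kept barcodes ran from -1.326 to 2.454, that of Cd3 barcodes from -20.66 to 4.12, the Pdcd1 group from -17.3 to 12.66, the Il17a group from -1.045 to 10.11 and the Gzmk group from -11.02 to 3.225; the last was 2.905 at 500 UMIs. Of 121 genes followed, 96 kept their direction in every alternative and 24 passed in at least 1. Signs turned as follows (log2). With the stricter selection: Mt1 -3.01, Spp1 -0.28, Tpi1 -0.051, mt-Atp8 0.38, mt-Nd1 0.13, mt-Nd2 0.42, mt-Nd4 0.26, mt-Cytb 0.40, mt-Co1 0.43, mt-Co2 0.40, mt-Co3 0.30 and mt-Atp6 0.20. With at most 25% mitochondrial UMIs: mt-Nd5 -0.089 and mt-Nd4l -0.25. With doublet calls removed: mt-Nd2 0.038, mt-Co1 0.044 and mt-Co2 0.067. With no filter: mt-Co1 0.0080 and mt-Co2 0.0056. With the replicate block: mt-Co1 0.0018. With gamma delta and natural killer genes removed, library totals, or the highest cell left out: mt-Nd4l -0.10, -0.057 and -0.014, and with the last Ccr8 0.93. Ranges over left-out libraries that crossed 0 were Lag3 -0.023 to 1.61, Il12rb2 -0.35 to 1.89, Ccr8 -2.10 to 0.64, Tmem176b -0.21 to 2.44, Ramp1 -0.39 to 1.13, Bhlhe40 -0.99 to 0.063, mt-Nd6 -2.37 to 0.15, Trp53inp1 -1.26 to 0.11, mt-Nd2 -0.18 to 0.088, mt-Nd4 -0.47 to 0.10, mt-Nd4l -0.33 to 0.72, mt-Cytb -0.85 to 0.50, mt-Co1 -0.26 to 0.31, mt-Co2 -0.16 to 0.16, mt-Co3 -0.36 to 0.19, mt-Atp6 -0.40 to 0.031, Icos -0.40 to 0.40, Tnfsf8 -1.52 to 0.18 and Izumo1r -0.45 to 0.67. The causes were not tested. With 82 cells, wild type 1 limits every comparison.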

Other observations

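Several other gene groups were measured in the CD4 cells. Immediate early genes and genes induced by tissue dissociation had a median log2 difference of 0.49 and a median span of 4.35 kb, with 18 of 24 tested members positive, where 79.9% of all genes under 10 kb were. Both mutants lay above both wild types for 5 of them (20.8%, against 31.3%), and below for 1. The 12 tested Th1 genes had a median of 0.18 with 7 positive, and none lay above in both mutants. The 15 cytotoxic genes had a median of 0.34, with 1 above and 2 below in both mutants. T cell receptor and coreceptor genes had a median of 0.12 over 19 tested, with 3 above and 6 below, and the median turned to -0.05 with library totals. NF-kB and survival genes had a median of -0.11 over 17 tested, with 2 above and 5 below. No member of these 5 groups passed the adjusted test. Of all genes tested 14.5% lay above in both mutants and 27.1% below.

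Against CD8 cells, 9 of the 17 NF-kB and survival genes were higher in CD4 cells and 3 in CD8 cells, and 9 of the 24 immediate early genes were higher in CD4 cells and 2 in CD8 cells. Cell cycle genes showed no call in either direction among 22 tested.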
